A study of Rattus norvegicus with 151 samples.

Results

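The comparison is between the livers of rats given 500 mg/kg MCHM (4 arrays) and the livers of rats given its vehicle (5 arrays). These are 9 of the 81 liver arrays and 9 of the 151 arrays in the series. They were chosen by the tissue, chemical and dose in their labels, and every gene above a cutoff of 4.69 log2 units in at least 3 MCHM livers was tested, which left 11335 of 14218 genes. MCHM is 4-methylcyclohexanemethanol, an alcohol used in coal cleaning. The study gave MCHM, crude MCHM or PPH to rats at several doses and profiled liver and kidney on expression arrays. All groups used here were male Harlan Sprague-Dawley rats of 6 to 8 weeks, dosed by gavage in corn oil on 5 consecutive days, and the vehicle group received corn oil with 0 mg/kg MCHM. The other MCHM groups had 0.1, 1, 10, 100 or 300 mg/kg, and crude MCHM, the technical mixture, had a vehicle group of its own. Each array held total RNA from a piece of whole liver, so all cell types of the organ contribute. The labels number the samples but do not say that a number is a rat, so p-values measure the spread between samples. In the main comparison this spread was taken within the dose groups of all 29 MCHM livers, not of the 9 compared arrays alone.

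The liver clears foreign chemicals by oxidising them with cytochromes P450, hydrolysing them with carboxylesterases and conjugating them with glutathione, sulfate, glucuronic acid or glycine. The nuclear receptors PXR and CAR raise transcription of many of those enzymes when they sense foreign compounds. PPARα does the same for peroxisomal and mitochondrial fatty acid enzymes, and the SREBP factors for the enzymes that make fatty acids and cholesterol.

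At 500 mg/kg, 58 genes differed from vehicle at an adjusted p under 0.05 (limma, Benjamini-Hochberg over all genes tested), which is 0.512% of the genes tested. Of these, 33 rose (0.291%) and 25 fell (0.221%), and 26 changed at least 1.5-fold, 18 upward and 8 downward. The genes that rose included the aminotransferases Tat and Gpt, the fatty acid synthesis enzymes Acly, Fasn and Elovl6, and the drug and ester metabolising enzymes Cyp3a23-3a1, Cyp3a18 and Ces2c. The genes that fell included the caveolar genes Cav2 and Cavin2, the glucocorticoid carrier Serpina6, the growth hormone receptor Ghr and the chemokine Ccl5. The changes ran from 0.20 to 1.39 log2 units in size, so the largest was 2.62-fold. In bulk tissue, fewer cells of a type and less RNA per cell cannot be told apart.

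The 2 groups did not overlap in 57 of the 58 genes, and Spmip11, a sperm microtubule protein, was the exception. Over all genes tested the groups did not overlap in 5.54%. In 35 of the 58, the 4 treated livers also lay beyond all 14 vehicle livers of the MCHM, crude MCHM and PPH sets, against 2.22% of all genes. The median shift of the risen genes was 0.56, 0.57, 0.62 and 0.57 log2 units in treated replicates 40, 41, 42 and 43. The fallen genes shifted by -0.60, -0.41, -0.40 and -0.47, with replicate 40 lowest. All of these values describe genes that the same arrays selected, so they say nothing of how evenly the livers responded.

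All 9 measured hepatocyte markers were above the cutoff in all 9 arrays, with a median change of -0.01, 4 members above 0 and 5 below. Their mean level was 12.96 to 13.07 log2 units in vehicle and 13.08 to 13.22 at 500 mg/kg, and this list holds Tat, which rose. Over the 8 markers without Tat the mean level was 13.53 to 13.61 in vehicle and 13.53 to 13.57 at 500 mg/kg, so those ranges overlapped. Of the 7 acinar pancreas markers, Prss1, Cpa1, Amy2a3 and Ctrb1 were below the cutoff in all 9 arrays. The other 3, Cela1, Cpb1 and Pnlip, were tested and none was called, with a median of -0.40 and mean levels of 6.52 to 6.81 in vehicle and 6.32 to 6.53 at 500 mg/kg. Array medians of the MCHM livers lay between 5.264 and 5.316, and pairs of the 9 arrays correlated at 0.9893 to 0.9937 over all probe sets.

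Promoters from RefSeq (build GRCr8) were matched for 9 of the 12 called genes of the metabolic and mitotic lists considered. The 5 below are shown because they stand for the gene groups that follow: a drug-metabolising P450, a sterol enzyme, a fatty acid synthesis enzyme, a peroxisomal β-oxidation enzyme and a mitotic gene. Each runs 5′ to 3′ on the strand of its gene from 250 bases before the start of the gene to 50 after it, and capitals mark motif matches on either strand.
Cyp3a23-3a1: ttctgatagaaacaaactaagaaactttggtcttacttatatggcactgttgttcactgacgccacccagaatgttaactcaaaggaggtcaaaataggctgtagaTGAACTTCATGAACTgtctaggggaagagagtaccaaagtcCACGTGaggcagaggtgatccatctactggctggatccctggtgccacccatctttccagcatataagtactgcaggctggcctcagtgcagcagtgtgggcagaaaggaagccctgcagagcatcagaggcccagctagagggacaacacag
Tm7sf2: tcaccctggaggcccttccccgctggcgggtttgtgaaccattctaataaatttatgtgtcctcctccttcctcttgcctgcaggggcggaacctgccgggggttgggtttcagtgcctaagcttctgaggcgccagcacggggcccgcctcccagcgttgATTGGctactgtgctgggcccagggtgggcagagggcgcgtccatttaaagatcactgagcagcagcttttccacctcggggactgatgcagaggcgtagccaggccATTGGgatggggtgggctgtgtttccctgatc
Acly: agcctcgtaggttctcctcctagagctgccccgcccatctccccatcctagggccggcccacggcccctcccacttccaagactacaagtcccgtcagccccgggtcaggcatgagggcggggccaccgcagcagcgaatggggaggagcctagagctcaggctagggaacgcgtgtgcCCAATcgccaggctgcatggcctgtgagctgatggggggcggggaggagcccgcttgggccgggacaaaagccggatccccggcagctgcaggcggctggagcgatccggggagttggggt
Ehhadh: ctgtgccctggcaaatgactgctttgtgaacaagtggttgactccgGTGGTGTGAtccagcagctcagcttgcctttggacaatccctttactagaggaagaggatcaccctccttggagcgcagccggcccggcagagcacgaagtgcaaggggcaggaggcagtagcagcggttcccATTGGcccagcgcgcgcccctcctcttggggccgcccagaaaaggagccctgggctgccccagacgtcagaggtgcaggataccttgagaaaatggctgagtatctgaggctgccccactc
Nusap1: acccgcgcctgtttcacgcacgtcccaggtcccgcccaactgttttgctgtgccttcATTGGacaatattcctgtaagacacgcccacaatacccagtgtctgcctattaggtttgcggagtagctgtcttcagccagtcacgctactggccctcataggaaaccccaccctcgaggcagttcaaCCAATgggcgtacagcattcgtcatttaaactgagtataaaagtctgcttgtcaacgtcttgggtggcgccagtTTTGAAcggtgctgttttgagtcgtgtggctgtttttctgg
The windows are chr12:14398754-14399053 (minus strand), chr1:212789492-212789791 (minus), chr10:85963582-85963881 (minus), chr11:92746159-92746458 (plus) and chr3:127057045-127057344 (plus).

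The Cyp3a23-3a1 window held a direct repeat spaced by 3 bases, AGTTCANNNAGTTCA, the kind of half-site pair that PXR is known to bind. It is the first run of capitals in that window, upstream of the start, and occurs in 2 of 33469 promoters, or 0.00598%. The same window held an E-box, CACGTG, which 6.42% of promoters hold. The Ehhadh window held the sterol element core TCACNCCAC (1.12% of promoters) and a CCAAT box. CCAAT, present in 37.5% of promoters, also occurred in the windows of Tm7sf2, Acly and Nusap1, at 2 places in Tm7sf2 and Nusap1. The Nusap1 window held the cell cycle element TTTGAA (18.3%) as well. The other motifs searched were AGGTCANAGGTCA (0.0538%), TGAACTNNNNNNAGTTCA (0.0%) and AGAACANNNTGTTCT (0.0149%), and none of these 3 was in the 5 windows. No 2 matches overlapped. Among the matched promoters not shown, those of Cyp3a18, the other called Cyp3a gene, and of Eci1 held no match. Those of Ces2c and Tat held CCAAT boxes only. A match describes letters in a window and is neither a bound site nor a cause.

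Both aminotransferases that passed the test rose more than 2-fold. Gpt encodes alanine aminotransferase, the liver enzyme whose activity in serum is read in toxicology. Listing vehicle replicates 3, 4, 6, 7 and 8 and then treated replicates 40, 41, 42 and 43, here and for every gene, Gpt measured 8.66, 8.77, 8.33, 8.68 and 8.39 and then 9.72, 10.06, 9.66 and 9.69. The treated livers stood above every vehicle liver, with replicate 41 highest. The change was 1.22 ± 0.19 log2 units (2.32-fold; ± gives the SE for each change; adjusted p = 0.00272). Tat, tyrosine aminotransferase, which starts the breakdown of tyrosine and is induced by glucocorticoids, measured 8.38, 8.67, 9.15, 8.47 and 8.66 in the vehicle livers and 10.64, 9.45, 10.26 and 9.87 in the treated livers. Its treated values spread widely, and the lowest, replicate 41, lay just above the highest vehicle value. The change was 1.39 ± 0.30 (adjusted p = 0.0298). The vehicle livers of the crude MCHM and PPH sets ranged from 7.99 to 10.55 for Tat. Treated replicates 41, 42 and 43 lay inside that range. Of 15 aminotransferases tested, 2 rose and none fell, with a median change of 0.13 against 0.01 over all genes. Against the low-dose livers described further on, the median was 0.02, also beside 0.01 over all genes, and Gpt alone passed. Gpt2, the mitochondrial isoenzyme of Gpt, changed by 0.53 ± 0.17 and Psat1, of serine synthesis, by 0.62 ± 0.26, neither past the threshold (adjusted p = 0.133 and 0.287).

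**Figure D1:**
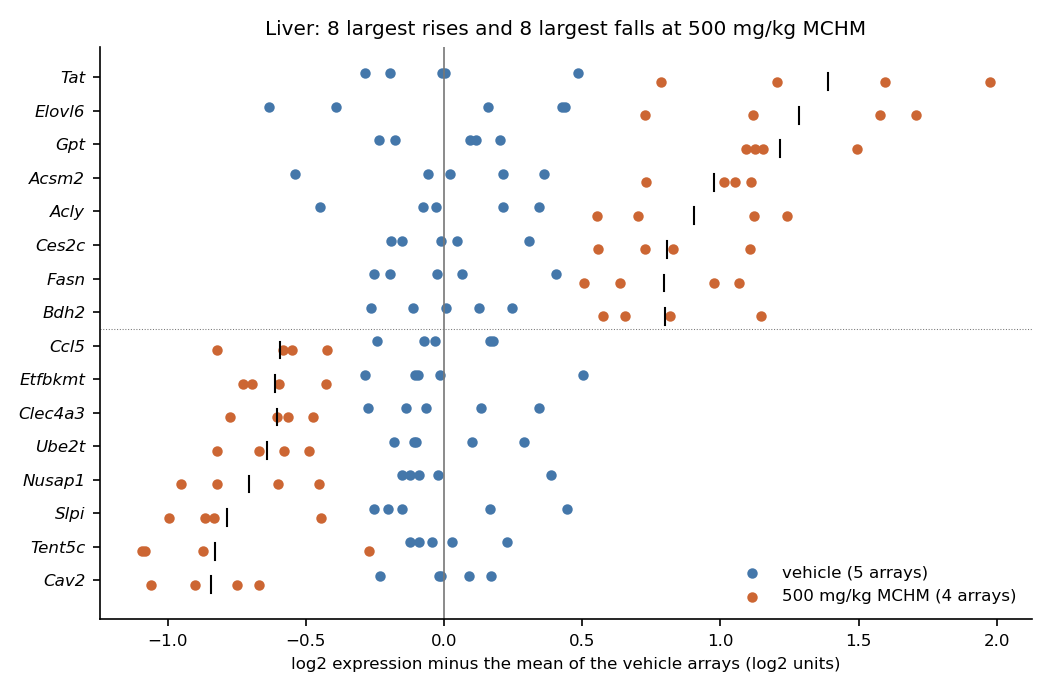
The log2 expression of each array is plotted relative to the mean of the 5 vehicle arrays, for 16 called genes, the 8 that rose most and the 8 that fell most; blue points are vehicle livers, orange points treated livers and black bars the treated mean. In these 16 genes the 4 treated livers lie to one side of all 5 vehicle livers, and Tat spreads most among the rises.

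Of 22 genes of fatty acid synthesis tested, 3 rose and none fell, and 17 of the 22 had a change above 0, with a median of 0.24. Over all genes tested, 0.291% rose, 0.221% fell, 51.8% had a change above 0 and 48.2% a change below 0. These shares belong beside the counts of every list. The 3 were Acly, which makes cytosolic acetyl-CoA from citrate, Fasn, which builds palmitate from it, and Elovl6, which elongates palmitate. Acly measured 10.76, 10.71, 11.00, 10.34 and 11.13 in the vehicle livers and 11.91, 11.34, 11.49 and 12.03 in the treated livers. Fasn measured 9.50, 9.18, 9.84, 9.24 and 9.41 in the vehicle livers and 10.41, 9.94, 10.07 and 10.50 in the treated livers. Elovl6 measured 7.82, 7.27, 8.10, 7.03 and 8.09 in the vehicle livers and 8.78, 8.39, 9.24 and 9.37 in the treated livers. Every treated liver was above every vehicle liver of the MCHM set for all 3, and treated replicate 41 was the lowest in each. The vehicle livers of the crude MCHM and PPH sets reached 11.68 for Acly, above treated replicates 41 and 42. For Elovl6 they reached 8.24, below all treated livers. The changes were 0.90 ± 0.19, 0.80 ± 0.19 and 1.28 ± 0.29 (adjusted p = 0.0272, 0.0488 and 0.038). Second probe sets of Fasn and Elovl6 gave 0.84 and 1.62. Thrsp, a small protein that follows lipogenesis, changed by 1.13 ± 0.34 (adjusted p = 0.122), and Acaca, which makes malonyl-CoA, by 0.52 ± 0.16 (adjusted p = 0.133). Scd2, a desaturase, had a value on the other side of 0, -0.60 ± 0.15 (adjusted p = 0.0643). Against the low-dose livers, 4 members of the list rose and 2 fell, with a median of 0.28. Over all genes, 1.39% rose and 1.81% fell there. The members that passed were Acly, Fasn, Elovl2, Elovl6, Scd2 and Thrsp.

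Among 22 genes of cholesterol synthesis and uptake, 1 rose and none fell, but 20 had a change above 0 and the median was 0.28, where 51.8% of all genes tested had a change above 0. The median was 0.15 against the low-dose livers and 0.11 with crude MCHM. The gene that rose was Tm7sf2, a sterol reductase of the late pathway. It measured 10.58, 10.42, 10.61, 10.44 and 10.33 in the vehicle livers and 11.13, 11.46, 11.31 and 11.01 in the treated livers, with no overlap, a change of 0.75 ± 0.12 (1.69-fold) and an adjusted p of 0.00272. Insig1, a feedback regulator of sterol synthesis, changed by 0.94 ± 0.27, Dhcr7, the last reductase of the pathway, by 0.45 ± 0.14, and Ebp, a sterol isomerase, by 0.39 ± 0.10 (adjusted p = 0.102, 0.127 and 0.0576). Ebpl, a relative of Ebp that was in no list, rose by 0.29 ± 0.06. The list's mean level per array was 9.86 to 10.17 in vehicle and 10.17 to 10.60 in treated livers, with replicate 42 highest.

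Of 15 measured targets of CAR and PXR, 3 rose and none fell, with a median of 0.15, which was 0.05 against the low-dose livers. Cyp3a23-3a1 and Cyp3a18 are P450s of the subfamily that oxidises many drugs and steroids, and Ces2c is a carboxylesterase. Cyp3a23-3a1 measured 12.40, 12.65, 12.65, 12.43 and 12.39 in the vehicle livers and 13.17, 13, 13.05 and 13.11 in the treated livers. Cyp3a18 measured 11.76, 12.36, 12.30, 12.13 and 12.04 in the vehicle livers and 12.80, 12.67, 12.74 and 12.72 in the treated livers. Ces2c measured 7.48, 7.74, 7.42, 7.24 and 7.28 in the vehicle livers and 8.26, 8.54, 8.16 and 7.99 in the treated livers. The treated livers were above all vehicle livers for each gene, and for both P450s the treated values lay closer together than the vehicle values. The changes were 0.58 ± 0.09, 0.61 ± 0.10 and 0.81 ± 0.15, that is 1.49, 1.53 and 1.75-fold (adjusted p = 0.00272, 0.00328 and 0.0111). The related Cyp3a9 changed by 1.02 ± 0.36 with overlapping groups (adjusted p = 0.189). Slco1a4, an organic anion transporter of the same list, measured 11.81, 12.17, 11.89, 11.96 and 11.84 in the vehicle livers and 11.73, 11.68, 11.68 and 11.58 in the treated livers. Its treated values were below those of all 14 vehicle livers, but the change of -0.27 ± 0.09 did not pass (adjusted p = 0.147). Against the low-dose livers it fell by 0.36 (adjusted p = 0.00448). Close members of the Cyp3a and Ces2 families may share probe signal, so the split among them is uncertain. Abhd1, an α/β-hydrolase in no list, measured 8.21, 8.35, 7.89, 8.15 and 8.22 in the vehicle livers and 8.63, 8.78, 9.0 and 8.87 in the treated livers and rose by 0.65 ± 0.10 (adjusted p = 0.00281).

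Of 17 targets of Nrf2, the sensor of oxidants and electrophiles, 1 rose, Sqstm1, which encodes the autophagy receptor p62. It measured 11.38, 11.53, 11.52, 11.37 and 11.55 in the vehicle livers and 11.91, 11.72, 11.77 and 12.04 in the treated livers and rose by 0.39 ± 0.08 (adjusted p = 0.0259). The glutathione transferase Gsta3 changed by 0.97 ± 0.36 and Srxn1, which repairs oxidised peroxiredoxins, by 0.56 ± 0.14 (adjusted p = 0.21 and 0.0643). Of 25 genes of conjugation, Gstk1, a glutathione transferase of mitochondria and peroxisomes, rose, from 11.26, 11.12, 11.13, 11.23 and 11.13 to 11.39, 11.74, 11.44 and 11.49 (change 0.34 ± 0.07; adjusted p = 0.0181). No member of the 5 AhR targets or of the 16 genes of alcohol and aldehyde oxidation passed.

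Of 8 genes of medium-chain acyl-CoA synthesis and glycine conjugation, 1 rose, and 7 had a change above 0, with a median of 0.29. The gene was Acsm2, a mitochondrial ligase that activates medium-chain and aromatic acids. It measured 6.66, 7.00, 6.85, 6.10 and 6.58 in the vehicle livers and 7.75, 7.37, 7.65 and 7.69 in the treated livers and changed by 0.97 ± 0.22 (adjusted p = 0.0424). Vehicle replicate 7 was lowest, and treated replicate 41, the lowest of its group, was above every vehicle liver. Acsm5, another member of the family, changed by 0.63 ± 0.26 and Slc27a5, an acyl-CoA synthetase of bile acids, by 0.36 ± 0.13 (adjusted p = 0.268 and 0.207).

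Of 35 genes of fatty acid oxidation tested, 2 rose, none fell and the median was 0.03, near the 0.01 of all genes, and -0.01 against the low-dose livers. Ehhadh, the bifunctional enzyme of peroxisomal β-oxidation, measured 10.92, 11.33, 11.14, 11.04 and 11.14 in the vehicle livers and 11.60, 11.99, 11.96 and 11.48 in the treated livers. Eci1, a mitochondrial enoyl-CoA isomerase, measured 11.55, 11.64, 11.56, 11.58 and 11.63 in the vehicle livers and 12.07, 12.20, 12.59 and 12.08 in the treated livers. Both groups of values were separate, and replicate 42 stood highest for Eci1. The changes were 0.64 ± 0.13 and 0.64 ± 0.15 (adjusted p = 0.0177 and 0.0488). Among uncalled members, Crot, a carnitine acyltransferase of peroxisomes, changed by -0.43 ± 0.13, Angptl4, an inhibitor of lipoprotein lipase, by -0.94 ± 0.29, and Acot8, a peroxisomal thioesterase, by 0.22 ± 0.07 (adjusted p = 0.126, 0.133 and 0.139). Cpt1a, which admits fatty acids to mitochondria, changed by -0.54 ± 0.18 (adjusted p = 0.167). Of 6 Cyp4a-type ω-hydroxylases, Cyp4a1 rose, from 10.90, 11.35, 11.07, 10.82 and 10.85 to 11.66, 11.40, 12.01 and 11.66 (change 0.69 ± 0.15; adjusted p = 0.0348), and the related Cyp4a3 had a value of -0.23 ± 0.16.

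Of 22 genes of peroxisomal oxidases and biogenesis, 2 rose. Pex14, part of the docking complex that imports peroxisomal enzymes, measured 8.26, 8.13, 8.18, 8.29 and 8.24 in the vehicle livers and 8.55, 8.62, 8.59 and 8.64 in the treated livers. Uox, urate oxidase of the peroxisome core, measured 11.87, 11.88, 11.75, 11.91 and 11.91 in the vehicle livers and 12.19, 12.27, 12.20 and 12.28 in the treated livers. Both sets of treated values were tight and clear of vehicle, with changes of 0.38 ± 0.06 and 0.37 ± 0.07 (adjusted p = 0.00499 and 0.0134). Hao2, a hydroxyacid oxidase of the same list, changed by -0.23 ± 0.09 (adjusted p = 0.246). Of 7 genes of ketone body metabolism, Bdh2, a hydroxybutyrate dehydrogenase of the cytosol, measured 5.04, 5.16, 4.92, 5.28 and 4.77 in the vehicle livers and 5.85, 6.18, 5.69 and 5.61 in the treated livers and rose by 0.80 ± 0.18 (adjusted p = 0.0333).

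The other risen genes were in no list. Dbi, the acyl-CoA binding protein, rose by 0.23, Mecr, of mitochondrial fatty acid synthesis, by 0.38, and Sar1b, a GTPase of vesicles that carry lipoproteins from the endoplasmic reticulum, by 0.24. Slc25a44, a mitochondrial carrier of branched-chain amino acids, rose by 0.41 and Atp1b1, the β subunit of the sodium pump, by 0.53. Hes6, a transcriptional regulator, rose by 0.77, Limk2, an actin-regulating kinase, by 0.66, and Asap2, an Arf GTPase activator, by 0.57. The remaining risen genes were Fbxo6 (0.38), Ociad2 (0.46), Spsb4 (0.69; above the cutoff in 1 of 5 vehicle livers), Smim1 (0.57) and Spmip11 (0.78), all as log2 changes. For Spsb4 the vehicle livers of the crude MCHM and PPH sets lay at 4.25 to 5.52, a range that holds all its treated values.

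**Figure D2:**
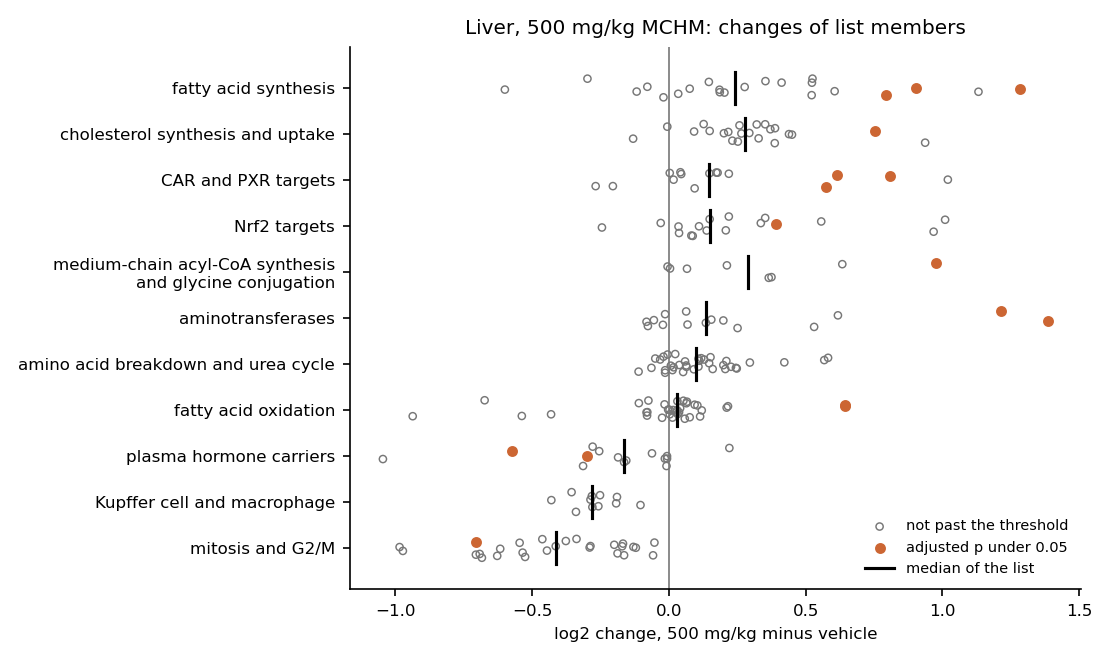
The log2 change of each tested member at 500 mg/kg is plotted for 11 gene lists; filled points passed the threshold, open points did not, and bars are list medians. The medians are 0.24 for fatty acid synthesis and 0.28 for cholesterol genes at the top, and -0.28 for macrophage markers and -0.41 for mitosis genes at the bottom, with few filled points in any list.

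Among the genes that fell, 2 encode parts of caveolae, the small pits of the plasma membrane. Cav2, caveolin 2, measured 8.21, 7.81, 8.02, 8.03 and 8.13 in the vehicle livers and 6.98, 7.37, 7.14 and 7.29 in the treated livers, the largest fall, at -0.85 ± 0.13 (1.8-fold lower; adjusted p = 0.00272). All 4 treated livers were below all vehicle livers, and 3 further Cav2 probe sets gave -0.90, -0.66 and -0.34. Cavin2, a coat protein of caveolae, measured 6.99, 6.86, 7.03, 7.00 and 7.11 in the vehicle livers and 6.64, 6.59, 6.81 and 6.49 in the treated livers and fell by 0.36 ± 0.08 (adjusted p = 0.0272). Its MCHM vehicle livers were high, however. The 9 vehicle livers of the crude MCHM and PPH sets lay at 6.35 to 6.80, below all of them. Cavin2 means at 0.1 to 300 mg/kg MCHM were 6.72 to 6.92, under the vehicle mean of 7.00. The 9 caveolar genes tested had a median of -0.06, with 6 members below 0 and 3 above, and 0.03 against the low-dose livers, where Cavin2 did not pass. Pacsin3, an adaptor that bends membranes, changed by 0.33 ± 0.11 (adjusted p = 0.147). Caveolae are abundant in endothelium, whose 9 measured markers had no called member, a median of -0.10, 7 values below 0, and mean levels of 7.89 to 8.08 in vehicle and 7.79 to 7.96 in treated livers. Cldn5 was below the cutoff in all 9 arrays, and the part of endothelium in these falls was not tested.

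A list of 15 genes of hormone carriers also holds the receptor Ghr, the growth factor Igf1 and the deiodinase Dio1. In it 2 genes fell, of which 1 encodes a carrier, none rose and 14 had a change below 0, with a median of -0.16, where 48.2% of all genes tested were below 0. Serpina6 encodes corticosteroid-binding globulin, the plasma carrier of glucocorticoids. It measured 12.36, 12.36, 12.26, 12.14 and 12.45 in the vehicle livers and 11.79, 11.84, 11.76 and 11.57 in the treated livers, with a gap between the groups, and fell by 0.58 ± 0.09 (1.49-fold lower; adjusted p = 0.00328). Ghr, the growth hormone receptor, measured 11.78, 11.88, 11.80, 11.84 and 11.87 in the vehicle livers and 11.48, 11.53, 11.52 and 11.60 in the treated livers and fell by 0.30 ± 0.07 (adjusted p = 0.038). The other Ghr probe set gave -0.05 (unadjusted p = 0.685). Serpina7, thyroxine-binding globulin, changed by -1.05 ± 0.35 with overlapping groups (adjusted p = 0.165), and Igf1 by -0.16 ± 0.06 (adjusted p = 0.215).

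Of 21 acute phase genes, Slpi, a secreted protease inhibitor, fell. It measured 9.15, 9.75, 9.05, 9.10 and 9.47 in the vehicle livers and 8.47, 8.31, 8.44 and 8.86 in the treated livers, a change of -0.78 ± 0.14 (adjusted p = 0.0112). A2m, a protease inhibitor of plasma, changed by -1.08 ± 0.33 with overlap (adjusted p = 0.132), and Orm1, an acute phase glycoprotein, had a value above 0, 0.65 ± 0.16 (adjusted p = 0.0613), so the list had no common direction and a median of -0.04. Other secreted proteins that fell were C1r, a complement protease, by 0.40, Tfpi, an inhibitor of coagulation, by 0.45, and Cpb2, a carboxypeptidase that protects clots, by 0.20 log2 units. A second Tfpi probe set gave -0.13.

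Ccl5, a chemokine of T and NK cells, was the single called fall among the cell type markers. It measured 7.89, 7.65, 7.48, 7.90 and 7.69 in the vehicle livers and 6.90, 7.14, 7.17 and 7.30 in the treated livers and fell by 0.60 ± 0.14 (adjusted p = 0.0483). Clec4a3, a lectin of myeloid cells that was in no list, measured 6.59, 7.21, 6.73, 6.80 and 7.00 in the vehicle livers and 6.09, 6.26, 6.30 and 6.39 in the treated livers and fell by 0.61 ± 0.11 (adjusted p = 0.0134). In both genes the treated livers were below all vehicle livers, with replicate 40 lowest. Of other genes in no list, Grn, progranulin, fell by 0.27 and Wipf1, a partner of the leukocyte actin regulator WASP, by 0.36. Maf, a transcription factor, fell by 0.43.

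Beside these falls, no Kupffer cell and macrophage marker passed the test, but 11 of 11 were below 0, with a median of -0.28. Of all genes tested, 48.2% were below 0. Their mean level was 8.79, 9.01, 8.84, 9.04 and 8.99 in the vehicle livers and 8.43, 8.62, 8.66 and 8.95 in the treated livers, so replicate 43 overlapped vehicle. Adgre1, Csf1r and C1qa changed by -0.43, -0.25 and -0.29 (adjusted p = 0.107, 0.0975 and 0.122). Of 9 T and NK cell markers tested, Ccl5 alone fell, 6 were below 0 and the mean level was 5.18 to 5.44 in vehicle and 5.12 to 5.31 in treated livers. Cd3d, Cd3g, Gzmb, Klrd1 and Ncr1 were below the cutoff in all 9 arrays. The 2 measured neutrophil markers had a mean of 4.99 to 6.30 in vehicle and 4.39 to 5.21 in treated livers, and the 13 of stellate cells and fibroblasts 6.86 to 7.23 and 6.77 to 7.05, with none called. The part of these cells in the falls was not tested.

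Of 27 genes of mitosis measured, 27 were below 0 at 500 mg/kg, beside 48.2% of all genes tested. Their median was -0.41, but 1 passed the test. The median was -0.20 against the low-dose livers, where Nusap1 did not pass, and -0.06 with crude MCHM. Nusap1, a spindle protein, measured 6.32, 6.42, 6.29, 6.83 and 6.35 in the vehicle livers and 5.49, 5.62, 5.99 and 5.84 in the treated livers and fell by 0.70 ± 0.16 (adjusted p = 0.0333). Mki67, the proliferation marker, changed by -0.99 ± 0.28 and Cdk1, the mitotic kinase, by -0.97 ± 0.26, both with overlapping groups (adjusted p = 0.1 and 0.0823). The mean level of the list was 5.52, 5.53, 5.63, 5.95 and 5.19 in the vehicle livers and 5.13, 5.24, 5.11 and 5.08 in the treated livers. Vehicle replicate 8 therefore lay among the treated livers and replicate 7 well above the rest. A further 6 genes of the list, Bub1, Bub1b, Cenpe, Ttk, Hmmr and Melk, were below the cutoff in all 9 arrays. Of 22 DNA replication and repair genes, Ube2t, a ubiquitin ligase partner of DNA crosslink repair, fell: it measured 4.64, 4.71, 4.72, 5.11 and 4.92 in the vehicle livers and 4.00, 4.24, 4.33 and 4.15 in the treated livers (change -0.64 ± 0.13; adjusted p = 0.0257). All 4 treated values and 1 of the 5 vehicle values were below the cutoff of 4.69, so the size of this fall rests on values not above it. Ube2t was above the cutoff in 6 of the 29 MCHM livers, 4 of them vehicle livers. It thus entered the test mainly through the group where it was high, and its call is no firm evidence of a fall.

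Erlec1, a lectin of endoplasmic reticulum quality control, measured 10.28, 10.26, 10.16, 10.21 and 10.32 in the vehicle livers and 9.91, 9.98, 9.93 and 10.02 in the treated livers and fell by 0.29 ± 0.05 (adjusted p = 0.0145), the single call among 24 genes of ER stress and amino acid response. Tent5c, a poly(A) polymerase known in B cells, measured 7.09, 7.21, 7.06, 7.41 and 7.14 in the vehicle livers and 6.31, 6.91, 6.09 and 6.10 in the treated livers, where replicate 41 stood near vehicle, and fell by 0.83 ± 0.18 (adjusted p = 0.0272). Its MCHM vehicle livers were high, however. The vehicle livers of the crude MCHM and PPH sets lay at 5.99 to 7.00 for Tent5c, a range that holds all its treated values. Etfbkmt, a lysine methyltransferase of mitochondria, measured 6.28, 6.88, 6.09, 6.27 and 6.36 in the vehicle livers and 5.65, 5.95, 5.78 and 5.68 in the treated livers and fell by 0.61 ± 0.14 (adjusted p = 0.0488). The remaining fallen genes were Steap3 (-0.58), an iron reductase, and Fam43a (-0.54), Ctla2a (-0.51), Nrep (-0.48), Rasal2 (-0.37), Kctd12 (-0.33) and Vps13b (-0.31), as log2 changes. Fam43a was above the cutoff in 2 of the 4 treated livers. The vehicle livers of the crude MCHM and PPH sets lay at 4.37 to 5.41 for Fam43a and 5.31 to 5.81 for Rasal2. Both ranges hold all treated values of the gene.

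Of the 58 called genes, 16 had more than 1 probe set. Their other probe sets numbered 21, of which 19 were above the cutoff, all 19 with the same direction and 12 with an unadjusted p under 0.05. The 2 below the cutoff had the opposite direction: that of Eci1 gave -0.50 (unadjusted p = 0.00114) and that of Kctd12 gave 0.03 (unadjusted p = 0.849).

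How many genes passed depended on single livers. Without treated replicate 40, 42 or 43, the counts were 21, 32 and 35, and without vehicle replicate 3, 4, 7 or 8 they were 27, 34, 19 and 30. The genes called as risen numbered 17, 14 and 16 in the first 3 of these fits and 13, 20, 12 and 21 in the others, in place of 33. Those called as fallen numbered 4, 18 and 19, and 14, 14, 7 and 9, in place of 25. Of the 58 genes, 12 passed in all 9 fits that left out 1 liver: Gpt, Cyp3a23-3a1, Tm7sf2, Abhd1, Cyp3a18, Pex14, Ces2c, Uox and Asap2 among the risen, and Cav2, Serpina6 and Slpi among the fallen. Ghr, Smim1, Eci1 and Cpb2 passed in none of the 9. The lipogenic genes passed in few: Acly in 4, Elovl6 in 3 and Fasn in 2. Tat, Nusap1, Cyp4a1, Acsm2 and Tent5c each passed in 2, and Ccl5 and Bdh2 in 1. Fitted on the 9 arrays alone, 14 genes passed, 9 of them among the 58.

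In order of dose, the median change of the 33 risen genes was 0.01 at 0.1 mg/kg, then 0.07, 0.02 and 0.06 up to 100, 0.30 at 300 and 0.64 at 500 mg/kg, and that of the 25 fallen genes -0.02, -0.14, -0.08, -0.11, -0.21 and -0.48. These comparisons share the vehicle livers. At 300 mg/kg, 3 genes passed (0.0265% of those tested), among them Tm7sf2 (0.73) and Cyp3a23-3a1 (0.49) of the 58. None passed without replicate 36 of that group or without vehicle replicate 7 or 8, and 1 gene passed without replicate 37. All 58 changes were smaller at 300 than at 500 mg/kg, where they had been selected.

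Gene by gene the dose profiles differed. Cyp3a23-3a1 averaged 12.50 ± 0.13 in vehicle (SD, n = 5), then 12.45, 12.49, 12.49, 12.57 and 12.99 at 0.1 to 300 mg/kg and 13.08 ± 0.07 at 500 (SD, n = 4). It was flat up to 100 mg/kg and near its highest level at 300. Tm7sf2 went from 10.47 ± 0.12 over 10.63, 10.72, 10.65, 10.90 and 11.21 to 11.23 ± 0.20. Ehhadh went from 11.11 ± 0.15 over 11.05, 11.09, 11.07, 11.10 and 11.36 to 11.76 ± 0.26, flat to 100 mg/kg. Cyp4a1 averaged 11.00 ± 0.22 in vehicle, 10.95, 11.07, 11.09, 10.99 and 11.05 at the doses between and 11.68 ± 0.25 at 500, so at 300 it was still at the vehicle level. Cav2 averaged 8.04 ± 0.15, 8.02, 8.05, 7.90, 7.86 and 7.77 and 7.19 ± 0.17, with most of its fall between 300 and 500. Gpt was above its vehicle mean of 8.57 ± 0.19 at every dose, with means of 8.77, 8.86, 9.10, 9.05 and 9.37, and 9.78 ± 0.19 at 500.

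**Figure D3:**
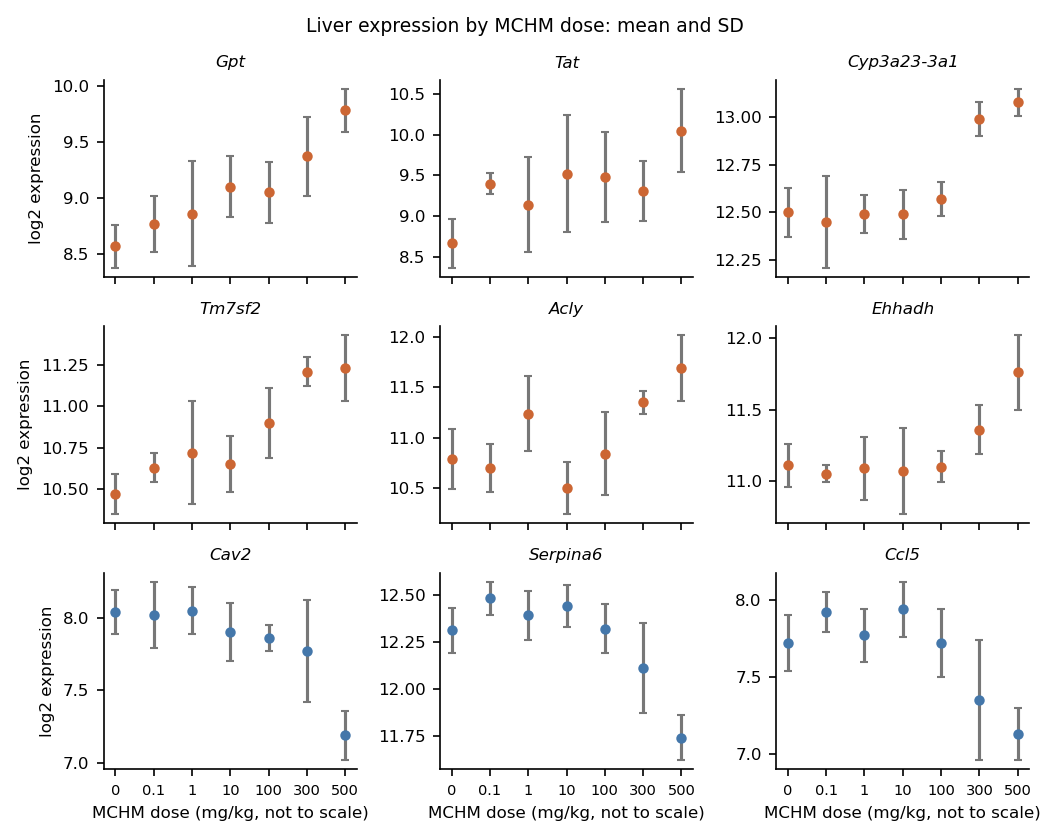
The mean log2 expression with its SD is plotted against MCHM dose for 9 called genes, with 5 vehicle livers, 4 livers at 300 and 4 at 500 mg/kg. Cyp3a23-3a1 and Tm7sf2 are near their highest level at 300 mg/kg, Cav2 and Serpina6 are lowest at 500, and Tat lies above vehicle at all doses.

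Set against the 16 livers of 0.1 to 100 mg/kg in place of vehicle, the same 4 treated livers gave 363 called genes (3.2%), 158 of them higher (1.39%) and the others lower (1.81%). Of the 58 genes, 48 passed and all 58 kept their direction, with the treated arrays shared between both comparisons. The 10 that did not pass were Tat, Bdh2 and Spsb4 among the risen and Nusap1, Ube2t, Etfbkmt, Steap3, Rasal2, Cavin2 and Kctd12 among the fallen. For Tat the low-dose means were 9.40, 9.14, 9.52 and 9.48 against 8.67 ± 0.30 in vehicle, and the change against low doses was 0.67 (adjusted p = 0.133). The vehicle livers were thus the lowest group for Tat. For Ube2t the vehicle mean of 4.82 ± 0.19 was the highest, with 4.28, 4.50, 4.16, 4.55 and 4.34 at 0.1 to 300 mg/kg. Trib3, a stress-induced pseudokinase that had not passed against vehicle (1.66 ± 0.48, adjusted p = 0.105), showed 0.35 against low doses.

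Crude MCHM at the same dose was compared through its own 4 treated and 4 vehicle livers, which shared no array with the MCHM groups. It gave 77 called genes (0.675%). Of the 58 MCHM genes, 17 passed there as well, which is 29.3% of the 58 and 22.1% of the 77. All 33 risen genes and 22 of the 25 fallen genes had the same direction, 40 of these 55 with an unadjusted p under 0.05, and over all genes tested the direction was shared by 65.6%. Single crude livers moved the count of 77. Leaving out each of the 4 treated livers gave 28, 41, 55 and 67 genes, leaving out each of 3 vehicle livers gave 23, 40 and 40, and leaving out the fourth vehicle liver gave 1.17% of the genes in place of 0.675%.

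The shared genes came from several of the risen groups. Abhd1 changed by 0.76 ± 0.08 (SE) with crude MCHM, Eci1 by 0.87 ± 0.11, Ehhadh by 0.74 ± 0.13 and Cyp4a1 by 0.79 ± 0.15. Gpt changed by 1.05 ± 0.22, Cyp3a23-3a1 by 0.65 ± 0.13, Ces2c by 0.85 ± 0.17 and Tm7sf2 by 0.51 ± 0.10. All 8 passed the threshold (adjusted p = 2.87e-05, 0.000115, 0.00499, 0.00989, 0.0229, 0.0158, 0.0167 and 0.0161). Among the fallen, Serpina6 changed by -0.41 ± 0.09 and Ccl5 by -0.51 ± 0.11 (adjusted p = 0.0256 and 0.0229). The lipogenic genes had the direction without passing: Acly 0.58 ± 0.24, Fasn 0.45 ± 0.23 and Elovl6 0.85 ± 0.31. Cav2, at -0.65 ± 0.18, also missed (adjusted p = 0.104).

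The difference between the 2 responses was tested gene by gene over 11625 genes, and none passed (0.0%; 334 had an unadjusted p under 0.05, and the lowest adjusted p was 0.997). Among the 58, which the MCHM arrays of this contrast had selected, 10 had an unadjusted p under 0.05. In 45 of the 58 the crude change was smaller than the MCHM change or opposite to it. Selection on the MCHM arrays favours such differences, so these p-values and intervals are not a fair test of the 58. The smallest p-values were those of Fam43a, C1r, Asap2, Ube2t and Nusap1. Fam43a changed by -0.54 with MCHM and 0.19 ± 0.13 with crude MCHM, and the 95% interval of the difference was -1.15 to -0.31 (unadjusted p = 0.000971). For C1r the interval was -0.74 to -0.15, for Asap2 0.12 to 0.79, for Ube2t -1.09 to -0.15 and for Nusap1 -1.44 to -0.18. Tat, at 0.16 ± 0.40 with crude MCHM, had an interval of 0.18 to 2.27. For 35 of the 58 genes the interval lay within 1.5-fold either way, among them Cyp3a23-3a1 (-0.42 to 0.27) and Ehhadh (-0.48 to 0.28), and for the others it reached beyond 1.5-fold. A missed threshold does not show that the 2 preparations act alike.

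In kidneys of the same MCHM groups (4 treated, 5 vehicle), 3 genes passed (0.0265%) and none of the 58 was among them. Of the 58, 30 had the liver's direction and 28 the opposite, 10 and 1 of them with an unadjusted p under 0.05. Over all 11335 genes tested, 895 had an unadjusted p under 0.05 in kidney, in either direction. The share of all genes with a common direction in both tissues was not counted. Tat, Cyp3a23-3a1, Cyp3a18, Serpina6 and Cpb2 were below the cutoff in all 9 kidney arrays, so a change of theirs in kidney could not be seen. Of the other 53 genes, 29 had the liver's direction and 24 the opposite. Cyp4a1 changed by 0.54 ± 0.16 and Eci1 by 0.51 ± 0.15 in kidney, beside liver changes of 0.69 and 0.64. Acsm2 changed by -0.06 ± 0.13 and Cav2 by 0.13 ± 0.15. No gene passed the test of the difference between tissues (0.0%; 1006 genes with an unadjusted p under 0.05; lowest adjusted p 0.136). Among the 58, which the liver arrays had selected, 45 had an unadjusted p under 0.05, and 41 of the 53 above the cutoff in a kidney. The smallest were those of Acsm2 (2.97e-05), Tat (4.71e-05), Hes6 (4.99e-05), Bdh2 (8.66e-05) and Sqstm1 (9.29e-05), and that of Tat sets the liver change against values below the cutoff in kidney. Without kidney vehicle replicate 3, 2 genes passed that test, and without liver vehicle replicate 8, 1 did.

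**Figure D4:**
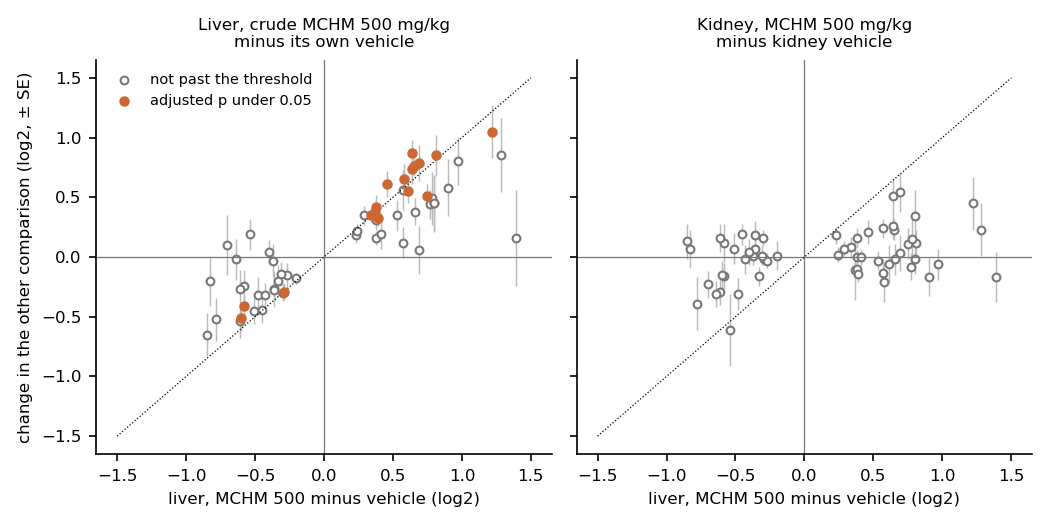
For the 58 called genes, the change with crude MCHM in liver (left) and with MCHM in kidney (right) is plotted against the MCHM change in liver, in log2 units with SE bars; the dotted line marks equal change and filled points passed the threshold in the comparison on the y axis. On the left 55 of 58 points have the sign of the liver change and 17 are filled; on the right 30 of 58 have it and none is filled, with 5 of the 58 below the cutoff in all kidneys.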

How the data were processed

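Total RNA of liver and kidney was hybridised to expression arrays, 1 per sample. The deposited values are log2 expression per probe set, made by the authors with RMA (background correction, quantile normalization and summary), per the submitters' processing notes; version, software and joint processing of tissues are not given in the sources used here. RMA brings arrays to 1 distribution, so a change common to most genes would not show. Of 31099 probe sets, 20832 carried 1 gene symbol in the array annotation, 436 several and 9831 were unnamed here. A gene was represented by its probe set with the highest mean over liver arrays, and tested where above the 40th percentile of liver values (4.69) in at least 3 arrays.

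Groups came from the labels. limma 3.58.1 in R 4.3.3 was fitted to all 29 MCHM livers (lmFit, eBayes, two-sided, Benjamini-Hochberg over all genes; called at adjusted p under 0.05). Crude MCHM, the difference between both chemicals (81 livers) and between tissues (18 arrays) had their own fits. The fit was tested on simulated data. Named genes are all called genes with assigned names, up to 3 uncalled members of each list, and the smallest differences in the other comparisons. Genes and lists were chosen with earlier results of these data known. No set test was run. Alternatives were other filters, probe summaries, scalings, arrays in the fit and leaving out each replicate. 1 kidney column, of 0.1 mg/kg MCHM, was out of step with its tissue. It belonged to no group compared here, so no kidney array was left out of the main comparisons. For arrays, their number limits the precision.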

Additional observations from a re-analysis of the deposited data

Results flagged for a closer look

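Among the vehicle and treated groups of the 58 called genes, 8 groups (6.9%) held a liver far from the others of its group. Chance gives about 1 in 20 groups, which is 5.8 of the groups examined, so a count of 8 is near it. Gpt in treated replicate 41 was 10.06, with the others at 9.66 to 9.72. Limk2 stood apart in both groups, at 7.59 in treated replicate 41 (others 8.15 to 8.26) and 7.17 in vehicle replicate 3 (others 7.42 to 7.47). Wipf1 in treated replicate 43 was 7.32 (others 7.19 to 7.21), and Cpb2 in treated replicate 42 was 12.02 (others at 11.95). In vehicle, Nusap1 was 6.83 in replicate 7 (others 6.29 to 6.42), Spmip11 was 5.93 in replicate 4 (others 5.36 to 5.43) and Uox was 11.75 in replicate 6 (others 11.87 to 11.91). Of these values, that of Spmip11 lay inside the range of the other group.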

How the results depend on the processing

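The share of genes called at 500 mg/kg, 0.512%, became 1.15% with all liver arrays in 1 fit, 1.53% with array weights (173 genes), 3.2% against the low doses (363 genes) and 0.127% with the 9 arrays alone (14 genes), and lay between 0.168% and 0.477% (19 to 54 genes) when 1 liver was left out. Without the filter 41 genes passed, with the mean of all probe sets 81, after a further quantile normalization 81 and with the beta-actin difference as a covariate 76. Crude MCHM's 0.675% became 0.117% with its 2 groups alone (13 genes) and 0.202% to 1.17% with 1 liver left out. The 0.0265% at 300 mg/kg became 0.0% to 0.0353%. The difference between chemicals stayed at 0.0% in every alternative run, and that between tissues was 0.0% to 0.0176% with 1 array left out. No named gene reversed with an array left out, but Cyp4a8 went to -0.042 and Abat to -0.012 with the mean of all probe sets. The median of fatty acid oxidation was -0.061 to 0.071 with 1 liver left out, below 0 without treated replicate 42, and -0.01 against low doses; that of ER stress genes was 0.051 and that of caveolar genes 0.026 against low doses; the cause was not tested. With the replicate number as a block, no gene differed between tissues (0; 1085 at an unadjusted p under 0.05). Same-numbered liver and kidney samples correlated at 0.038 to 0.275 in their deviations over 8 pairs, 7 of 8 livers best with their own number, and the labels do not state a pairing.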

Other observations

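Against the 16 low-dose livers, 33 members of the gene lists passed that had not passed against vehicle. Over all 11335 genes tested, 363 (3.2%) passed there, so passing members of long lists are no result about the lists. Some of the 33 are given here as values of that comparison, which shares the treated livers with the report's. The sterol exporters Abcg5 and Abcg8 fell by 0.96 and 0.84 log2 units (adjusted p = 0.00236 and 0.0264), and Abcb4, the phospholipid exporter of bile, fell by 0.42 (adjusted p = 0.01). Against vehicle, Abcg5, Abcg8 and Abcb4 changed less, by -0.473, -0.225 and -0.235 (adjusted p = 0.307, 0.764 and 0.361). The metallothioneins Mt2A and Mt1 fell by 1.79 and 0.80 (adjusted p = 0.0374 and 0.0322). Cpt1a fell by 0.94 and Serpina7 by 1.16 (adjusted p = 0.00104 and 0.0222). Sult2a6, a sulfotransferase, rose by 1.49, Gsta3 by 1.07 and Thrsp by 1.16 (adjusted p = 0.0189, 0.0461 and 0.0226).

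Amino acid genes also passed there: Prodh, of proline breakdown, rose by 0.48, Aass, of lysine breakdown, by 0.32, Nags, which makes the activator of the urea cycle, by 0.24, Arg1, arginase, by 0.23, and Hgd, of tyrosine breakdown, by 0.22. Against vehicle the same 5 genes changed by 0.57, 0.11, 0.30, 0.24 and 0.21, none past the threshold. Noct, a circadian NADP(H) phosphatase named here after its values were seen, changed by 1.72 ± 0.41 against vehicle (adjusted p = 0.0517) and by 1.10 against low doses (adjusted p = 0.0638).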
